A study of Homo sapiens with 3 samples.

Results

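The major histocompatibility complex (MHC) on the short arm of human chromosome 6 held 143 of the 31378 MYC-bound regions listed in untreated P493 cells and 124 of the 27614 listed after MST-312. Members were taken by position alone, as every listed region on chromosome 6 (hg19) whose summit lay from 29.6 to 33.4 Mb. They were divided at 31.5 and 32.3 Mb into a class I part, a class III part and a class II part. The class I part held 63 untreated and 50 MST-312 regions, the class III part 42 and 41, and the class II part 38 and 33. MYC was profiled by chromatin immunoprecipitation followed by single-read sequencing (ChIP-seq) with the N262 antibody. P493 is a human B cell line, immortalised by Epstein-Barr virus, that carries a repressible MYC gene. The compared groups were untreated P493 cells and P493 cells treated with the telomerase inhibitor MST-312, whose dose and duration the labels do not name. An input library of untreated cells served as the background for both lists. The labels do not say whether the repressible MYC gene was on.

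The MHC is a gene-dense stretch best known for antigen presentation. Its class I genes, such as HLA-B and HLA-C, encode the chains that show peptides from inside the cell to cytotoxic T cells, while class II genes of the HLA-DR, HLA-DQ and HLA-DP families, which B cells express, encode the chains that show peptides from taken-up material to helper T cells. The same stretch holds the peptide transporter genes TAP1 and TAP2, the immunoproteasome genes PSMB8 and PSMB9 and the chromatin reader BRD2. Class III holds complement genes, the TNF and lymphotoxin cytokine genes, and many housekeeping genes of RNA processing and protein folding. MYC, paired with MAX, binds DNA at E-boxes, of which CACGTG is the best known form, mostly at promoters of active genes.

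The listed regions carry hg19 positions and the gene tables used here are of another build, so no region is assigned to a gene below. In the RefSeq gene order of GRCh38.p14, 51 protein-coding genes lie from MOG to MICB (class I), 58 from DDX39B to NOTCH4 (class III) and 35 from BTNL2 to KIFC1 (class II). These end genes stand for the parts only roughly. RefSeq promoter windows of 300 bases (250 before to 50 after the start) were found for 96 of 109 MHC genes, with 145 windows in all. The 109 genes were picked by name. They are not all genes of the MHC, and they are not a list of MYC-bound genes. CACGTG, which reads the same on both strands, occurred in 9 of these 145 windows (6.21%), against 7.26% of the 35116 windows in the whole table. It was found in 3 of 44 class I windows, in 5 of 57 class III windows and in 1 of 44 class II windows, so the motif was about as frequent in these windows as in all promoters. The stretches below show the motif in its setting for the 6 genes whose motif lay before the start. They encode the ATP-binding protein ABCF1, linked to translation, the tubulin chain TUBB, the lysosomal sialidase NEU1, the histone H3 lysine methyltransferase EHMT2, the complement protein C2 and the stress transcription factor ATF6B. Each has 30 bases of GRCh38.p14, 5′ to 3′ on the gene's own strand, with the motif in capitals.
ABCF1: cggcgaagctcgCACGTGcgcagcccgggg
TUBB: gtgcgccgcagtCACGTGgagggcgggggg
NEU1: atgctgcgtgatCACGTGggaggagatgag
EHMT2: ccctccctcgccCACGTGacccggggcggc
C2: gcatttctccacCACGTGctccatctgcag
ATF6B: catctgttgattCACGTGctcagcacccag
The motif begins 79 bases before the start in ABCF1, 49 in TUBB, 126 in NEU1, 30 in EHMT2, 38 in C2 and 102 in ATF6B. ABCF1, TUBB and C2 lie on the plus strand and the other three genes on the minus strand. C2 has a motif in another window too, 60 bases before that start. That site is the EHMT2 stretch read on the other strand, so the windows count it under both genes. A match describes the letters only and was not tied to a listed region.

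Each condition is 1 library, so the differences below lack a replicate check, and the effect of MST-312 carries no p-value. The untreated library kept 60805153 of 80489246 tags and the MST-312 library 55400354 of 108838301, and the redundant rate was 0.24 and 0.49. The authors' lists hold strong calls, with −log10 q of at least 13.01 (untreated) and 13.02 (MST-312), so a region missing from a list may still have been bound at a lower level. Intervals are exact Clopper-Pearson 95% intervals, which describe the counting of regions within a library and leave out how libraries vary.

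MYC regions were dense across the MHC in both lists. The untreated list held 37.6 regions per Mb of the MHC, against 6.88 over the rest of chromosome 6 and 10.1 over the genome. The MST-312 list held 32.6 regions per Mb, against 6.05 and 8.92. Class III was the densest part, with 52.5 untreated and 51.2 MST-312 regions per Mb. Class I held 33.2 and 26.3 per Mb, and class II 34.5 and 30 per Mb. The listed regions covered 148.0 kb of the MHC in the untreated list, or 3.89% of the span, and 95.2 kb or 2.51% in the MST-312 list. Over the genome these shares were 0.871% and 0.637%. Among all windows of 1 Mb that held a region, the window from 31 to 32 Mb, which spans the border of class I and class III, ranked 40th of 2744 in the untreated list with 50 regions. It ranked 10th of 2808 in the MST-312 list with 47 regions, where the median window of either list held 7.

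**Figure D1:**
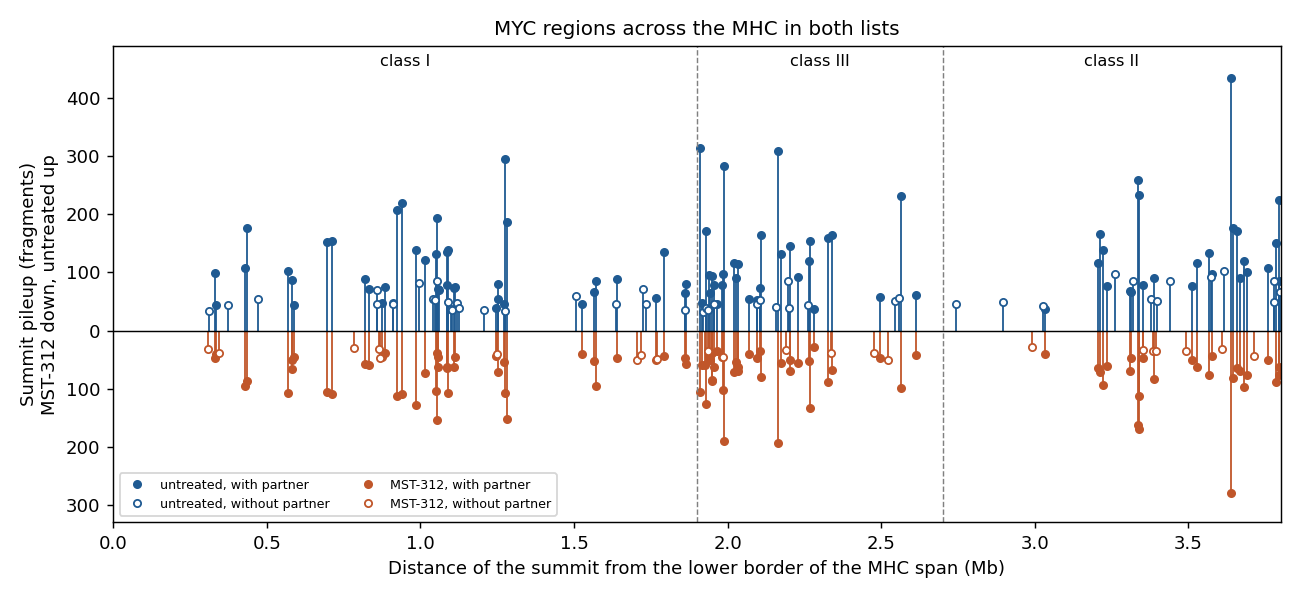
Summit pileup (fragments) of each MYC region against the distance of its summit from the lower border of the MHC span (Mb), with untreated regions drawn upward and MST-312 regions downward; filled points have a partner in the other list and open points do not. Regions gather in class I from 30.4 to 30.9 Mb, in class III below 31.9 Mb and in class II above 32.8 Mb (0.8 to 1.3, 1.9 to 2.3 and 3.2 to 3.8 Mb on the axis), 6 windows of 100 kb are empty in both lists, and the highest region of each list (434 and 279 fragments) is at the same place in class II.

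The regions were unevenly spread within each part. Of 38 windows of 100 kb, 7 held no untreated region and 8 no MST-312 region, and 6 were empty in both lists. The first 307 kb of the span, up to the MST-312 summit at 29907183, held none. Within class I no summit of either list lay between 30882096 and 31105422 (223 kb). In contrast, the stretch of class I from 30.4 to 30.9 Mb held 38 of its 63 untreated regions and 26 of its 50 MST-312 regions. In class III, 35 of 42 untreated and 33 of 41 MST-312 regions lay below 31.9 Mb. The single window from 31.5 to 31.6 Mb held 15 untreated and 16 MST-312 regions, the most of any MHC window in either list. No summit lay between 31939848 and 32075737 (136 kb).

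Class II divided into a sparse and a dense stretch. From 32.3 to 32.8 Mb it held 4 untreated and 2 MST-312 regions, or 8 and 4 per Mb. From 32.8 to 33.4 Mb it held 34 and 31 regions, or 56.7 and 51.7 per Mb. The bounds of these stretches, and of those named for class I and class III, were chosen after the positions were seen. The 4 untreated regions of the sparse stretch had pileups of 37 to 50 fragments, and the MST-312 regions there had pileups of 29 and 40. The longest gap of the MST-312 list, from 32212911 to 32590395 (377 kb), ended in this stretch and held 2 untreated summits, at 32344064 and 32497915. A single place in the stretch was listed in both libraries, at 32632486 to 32633170 in untreated cells (37 fragments) and at 32632497 to 32633052 after MST-312 (40 fragments). The median local background, back-calculated from the fold enrichment, was 5.69 fragments at the sparse untreated summits and 9.93 in the rest of class II. In the MST-312 list it was 4.42, over only 2 regions, and 7.91. The untreated region at 32627651 and the MST-312 region at 32590206 had 3.93 and 3.58 fragments, the lowest level in each whole list. The names of the aligned files carry the suffix q10, whose meaning the headers do not state. Whether fewer reads could be placed in the bare stretches was not tested, since the lists give no coverage outside regions.

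MHC regions had higher median summit pileups than the lists. The pileup is the number of fragments, extended to 200 bp, that cover the summit. The median over the MHC was 78 fragments in the untreated list (quartiles 50 and 119.5), against 62 over the whole list. In the MST-312 list it was 58 (quartiles 44.8 and 84.2), against 50. By part, the untreated medians were 72 in class I, 78.5 in class III and 91.5 in class II, and the MST-312 medians were 53.5, 55 and 64. In class II, 31 of 38 untreated regions (81.6%) lay above the untreated list median, and 22 of 33 MST-312 regions (66.7%) lay above theirs. A pileup of 100 or more was reached by 46 of 143 untreated MHC regions (32.2%, against 27.9% of the list) and by 21 of 124 MST-312 regions (16.9%, against 14.5%). In class II this was 16 of 38 untreated regions (42.1%) and 4 of 33 MST-312 regions (12.1%). The MST-312 counts were 11 of 50 (22%) in class I and 6 of 41 (14.6%) in class III. These pileups are not scaled for depth and the shares have no interval, so no order among the parts is drawn. The median fold enrichment over local background was 7.69 and 6.63, against 6.83 and 6.55 over the lists. Local background at MHC summits had medians of 8.68 and 7.64 fragments, against 7.71 and 6.85 over the lists and 5.78 and 4.73 on the rest of chromosome 6.

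MHC regions were also longer than the list medians in untreated cells, and the broadest were in the untreated list. The median length was 888 bp (quartiles 576.5 and 1450) against 678 bp over the untreated list. After MST-312 it was 609.5 bp (quartiles 427 and 1022.5) against 566 bp. The untreated medians were 783 bp in class I, 866.5 bp in class III and 1012.5 bp in class II. The MST-312 medians were 636.5, 551 and 631 bp, with class III lowest. Regions of at least 2000 bp numbered 11 in the untreated MHC (4 in class I, 3 in class III and 4 in class II), which is 7.69% against 5.12% of the list. The MST-312 MHC held 0 such regions of 124. As an approximate limit (3 divided by the number of regions, not an exact interval), this allows a share of up to 2.42%. Of the MST-312 list, 1.97% was that broad. Covered length was 35.7% lower in the MST-312 list over the MHC and 26.9% lower over the genome, while the number of regions was 13.3% and 12% lower. The number differed least in class III, with 42 and 41 regions, though these covered 43.3 and 29.5 kb. These counts come from 1 library each, and the MST-312 library kept fewer tags out of a larger total.

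**Figure D2:**
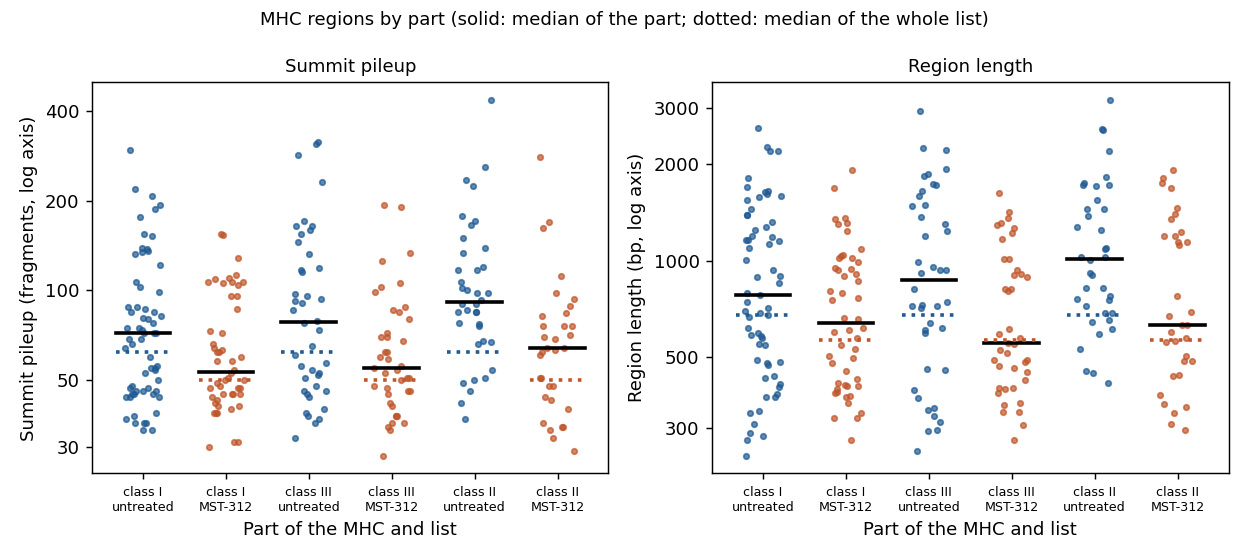
Summit pileup (fragments, log axis, left) and region length (bp, log axis, right) of each MHC region by part and list, with the median of the part as a solid line and that of the whole list as a dotted line. The untreated class II regions have the highest medians (91.5 fragments and 1012.5 bp), and the MST-312 medians of pileup (53.5 to 64 fragments) lie below the untreated medians in each part.

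Most MHC regions were called in both libraries. In the untreated list 95 of 143 regions had an MST-312 partner, a region of the other list sharing 1 bp or more, which is 66.4% (58.1 to 74.1), where 53.6% of the whole untreated list did. In the MST-312 list 102 of 124 regions shared bases with an untreated region, which is 82.3% (74.4 to 88.5), where 63.3% of the whole MST-312 list did. On the rest of chromosome 6 the shares were 57.9% and 67.5%. By part, the untreated share was 63.5% in class I (40 of 63, 50.4 to 75.3), 71.4% in class III (30 of 42, 55.4 to 84.3) and 65.8% in class II (25 of 38, 48.6 to 80.4). The MST-312 share was 82.0% in class I (41 of 50, 68.6 to 91.4), 85.4% in class III (35 of 41, 70.8 to 94.4) and 78.8% in class II (26 of 33, 61.1 to 91). The intervals of the parts overlap one another widely, so no order among the parts can be read from them. The overlap rule and threshold matter for the class I part and for the setting against the list. With at least 50% of both regions shared, the class I shares were 38.1% and 48.0%, where the whole lists had 44.4% and 50.5%. With both lists held to −log10 q of 26 or more, the untreated MHC share was 55.4%, where the list had 59.5%.

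**Figure D3:**
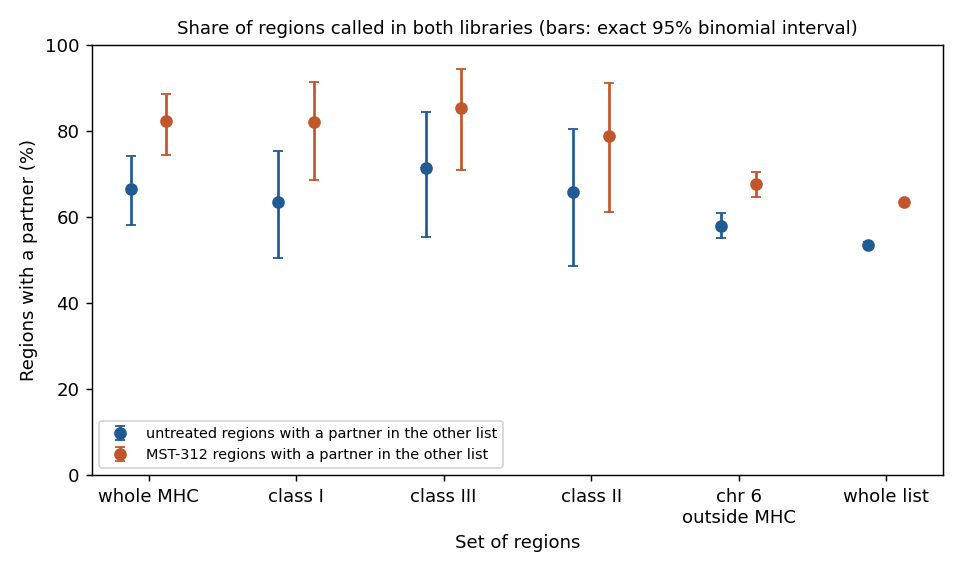
Share of regions (%) with a partner (1 bp or more shared) in the other list, for the MHC, its parts, the rest of chromosome 6 and each whole list; bars are exact 95% binomial intervals over regions. The MHC shares (66.4% untreated, 82.3% MST-312) stand above those of the whole lists (53.6% and 63.3%), and the intervals of the 3 parts overlap.

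The higher untreated share went along with stronger calls. Of the untreated MHC regions 101 of 143 (70.6%) had −log10 q of at least 26, against 53.9% of the list. Among these strong untreated regions 83 of 101 had a partner, which is 82.2% (73.3 to 89.1), where 82.0% of strong regions in the list did. Among the weaker untreated regions 12 of 42 had one, which is 28.6% (15.7 to 44.6), where 20.3% of weaker regions in the list did. Both intervals hold the list value. The strong untreated share was close to the list, while the interval of the weaker class is too wide to show that its share was. Whether call strength accounts for the higher untreated share was not tested. Strong MST-312 regions had an untreated partner in 63 of 65 cases, which is 96.9% (89.3 to 99.6), where 95.4% did in the list. Weaker MST-312 regions had one in 39 of 59 cases, which is 66.1% (52.6 to 77.9), where 40.5% did in the list. Among these strength classes only the weaker MST-312 regions had an interval above the list value. Untreated regions cover a larger share of the MHC (3.89%) than of the genome (0.871%), and the part of that density in the overlap was not tested.

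Of the 18 strong untreated MHC regions without a partner, 10 were in class II, 6 in class I and 2 in class III. The share of strong untreated regions with a partner was 70.6% in class II (24 of 34, 52.5 to 84.9), 85.0% in class I (34 of 40, 70.2 to 94.3) and 92.6% in class III (25 of 27, 75.7 to 99.1). These intervals overlap, but overlap is no test of a difference. The parts were not compared directly, so no order among them is drawn.

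In the MHC, 85 pairs were exclusive, each region overlapping no other of the opposite list, and the untreated region of the pair usually had the higher pileup. The median pileup in these pairs was 96 fragments in untreated cells (quartiles 72 and 139) and 62 after MST-312 (quartiles 48 and 89). Over all exclusive pairs in the genome the medians were slightly higher, at 99 and 67 fragments. Scaled for depth, as fragments per 1000000 kept tags, the MHC medians were 1.58 and 1.12, against 1.63 and 1.21 over all pairs. The depth-scaled pileup was lower after MST-312 in 72 of 85 pairs, which is 84.7% (75.3 to 91.6), where 79.0% of all 15265 exclusive pairs in the genome were lower. The counts were 28 of 36 in class I, 24 of 26 in class III and 20 of 23 in class II. The median length was 1159 bp in untreated cells and 693 bp after MST-312, where all pairs had 998 and 773 bp, so the MHC medians lay farther apart. The MST-312 region was the shorter in 66 pairs (77.6%, against 75.4% of all pairs). The median distance between summits was 52 bp, and it was at most 100 bp in 62 of 85 pairs (72.9%, against 74.7% of all pairs). The local background in these pairs had medians of 8.68 and 7.91 fragments, the same as over all pairs. The MHC pairs thus stood near the genome-wide pairs in summit distance, local background and the share with the shorter MST-312 region. The median lengths lay farther apart. The median depth-scaled pileups lay slightly farther apart too, at 1.58 and 1.12 against 1.63 and 1.21. No interval was computed for these medians.

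**Figure D4:**
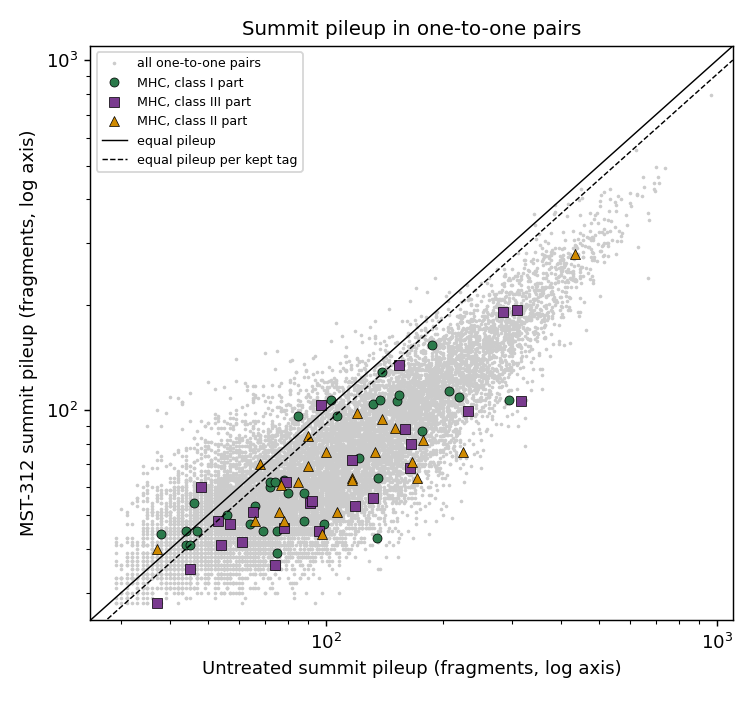
MST-312 summit pileup against untreated summit pileup (fragments, log axes) for the 85 MHC pairs, coloured by part, over all 15265 pairs in grey; the solid line marks equal pileup and the dashed line equal pileup per kept tag. Most MHC pairs lie below both lines (72 of 85 below the dashed line), inside the cloud of all pairs.

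The strongest MYC region of the MHC was the same place in both lists and lay in class II. It spanned 33239011 to 33240390 in untreated cells, with 434 fragments at the summit and a fold enrichment of 28.1, and it ranked 156th by pileup in the untreated list. After MST-312 it spanned 33239089 to 33240482, with 279 fragments, a fold enrichment of 24.3 and a summit 28 bp from the untreated one. Per 1000000 kept tags the pileups were 7.14 and 5.04 fragments. Its length barely differed (1380 and 1394 bp).

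The longest untreated MHC region, of 3170 bp, was also in class II, at 32935818 to 32938987 with 259 fragments. Its direct neighbour in the list lay at 32939113 to 32941316 with 234 fragments. After MST-312 this pair of regions was met by 3 regions, at 32935899 to 32937711 (162 fragments), 32937780 to 32939703 (112 fragments) and 32939758 to 32941109 (169 fragments). The middle one, the longest MST-312 region of the MHC at 1924 bp, bridged both untreated regions. This stretch was thus densely covered in both lists, with the borders between calls placed differently.

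The other leading class II regions differed more between the lists. The region at 33395437 to 33396685 had 224 fragments in untreated cells and 76 after MST-312, with summits 10 bp apart. The region at 33244349 to 33246058 had 177 fragments and 82 after MST-312. Their local background was 15.4 and 16.4 fragments in the untreated list, against a median of 8.68 over the MHC. The strongest class II region, at 33239011 to 33240390, also had a high untreated background, of 14.5 fragments. High background was thus not particular to the regions that differed more. Whether it bears on the difference between the lists was not tested.

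In class III the leading region lay just inside the border with class I, at 31508835 to 31510674. It had 315 fragments in untreated cells and 106 after MST-312, and its fold enrichment was 23.3 and 7.11. The summits lay 37 bp apart, and the local background was 12.5 and 14.1 fragments. The next regions kept more of their pileup. The region at 31762398 to 31763993 had 309 fragments and 193 after MST-312, and the region at 31587666 to 31589159 had 284 and 191. The region at 32163031 to 32164749, above the bare stretch of class III, had 231 and 99 fragments. The region at 31526330 to 31528543 had 171 fragments and was met by a pair of MST-312 regions with 59 and 126 fragments.

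In class I the leading region lay at 30875549 to 30876396. It had 295 fragments in untreated cells and 107 after MST-312, and its fold enrichment of 43.6 in untreated cells was the highest of the MHC, against 17.2 after MST-312. The next region above it in the list, at 30881789 to 30882499 had 187 fragments and 153 after MST-312. The values of the lists thus lay far apart in the first and close together in its neighbour. The region at 30538649 to 30539776 had 219 and 109 fragments, and the region at 30523359 to 30525555 had 207 and 113. The region at 30653081 to 30655678, the longest of class I at 2598 bp, had 193 fragments and was met by MST-312 regions with 39 and 154 fragments.

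All 10 MHC regions with the highest untreated pileup had an MST-312 partner, and all 10 with the highest MST-312 pileup had an untreated partner. This is usual for strong regions. In the 10% of each whole list with the highest −log10 q, 99.8% of untreated and 99.9% of MST-312 regions had a partner. The leading 10 MHC regions of the untreated list met a leading 10 MHC region of the MST-312 list in 5 cases. The untreated 10 had at least 219 fragments, and the MST-312 10 at least 126.

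Some MHC regions were divided differently in the lists. Of the untreated regions, 87 had a single partner and 8 had several, of which 4 were in class III. The most divided region, at 31547881 to 31550809 in class III (2929 bp, 94 fragments), was met by 3 MST-312 regions with 38, 85 and 86 fragments. Of the MST-312 regions, 100 had a single partner and 2 had several. Besides the class II bridge, this was the class I region at 30850935 to 30852850 (72 fragments), which met untreated regions of 55 and 81 fragments. These counts of divided regions were not set against the whole lists, so whether the MHC or class III differs in them was not tested.

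In 13 of the 85 exclusive pairs the depth-scaled MST-312 pileup was the higher one. Of these, 8 were in class I, 2 in class III and 3 in class II. In class III the region at 31515083 to 31515538 had 48 fragments in untreated cells and 60 after MST-312, or 0.789 and 1.08 per 1000000 kept tags. The region at 31583309 to 31584051 had 97 and 103 fragments. In class I the region at 31171074 to 31172264 had 85 and 96 fragments, and the region at 30168368 to 30169051 had 103 and 107. In 4 of the 13 pairs the unscaled pileup was lower after MST-312, so that their order depends on the scaling. These pairs are named because of their values, so the direction in them is a description.

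The untreated MHC regions without an MST-312 partner numbered 48 of 143, where 14575 of 31378 in the list had none, and were mostly weak. Their median pileup was 48.5 fragments (range 32 to 102) and their median length 608 bp, against 97 fragments and 1197 bp for those with a partner. The whole untreated list was split in the same way. Its medians were 43 fragments and 438 bp without a partner, and 100 fragments and 1026 bp with one. For the MHC regions without a partner, the nearest MST-312 region lay a median of 5.86 kb away, and within 1 kb for 5 of the 48. In the whole untreated list the median was 17.7 kb, and it was within 1 kb for 1534 of 14575 such regions. The part of the regional density in the shorter MHC distance was not tested. The strongest MHC regions without a partner, by pileup, were all in class II. They lay at 33216034 to 33217760 (102 fragments, nearest MST-312 region 7.39 kb away), 32862040 to 32862858 (98 fragments, 26.7 kb) and 33172217 to 33173239 (93 fragments, 2.66 kb). In class III the strongest was 31795239 to 31795878 (86 fragments, 4.80 kb), and in class I it was 30651849 to 30653003 (85 fragments). That class I region ended 186 bp from an MST-312 region, so that its lack of a partner rests on the overlap rule. The class II region at 32343737 to 32344347, the first above the class III border, had 46 fragments and stood farthest from any MST-312 region, at 130.6 kb.

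The MST-312 MHC regions without an untreated partner numbered 22 of 124, where 10121 of 27614 in the whole list had none. The 22 were 9 of 50 in class I, 6 of 41 in class III and 7 of 33 in class II. Their median pileup was 37 fragments (range 29 to 51) and their median length 386.5 bp. Regions without a partner in the whole MST-312 list were similar, with medians of 35 fragments and 368 bp. The strongest of the 22 lay in class I at 31304219 to 31305251, with 51 fragments, a length of 1033 bp and a −log10 q of 33.2. The nearest untreated region was 19.5 kb away. In class III the strongest, at 32122324 to 32122683, had 50 fragments and lay 23.4 kb from an untreated region. In class II the strongest, at 33312878 to 33313362, had 43 fragments and lay 20.9 kb away. Of the 22 regions, 2 had −log10 q of at least 26, both in class I. The other 20 lay between that value and the listing level.

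No listed region crossed a border of the span, and other borders were not tried. Below the lower border the nearest untreated region was at 28949271 to 28950155 (125 fragments), and the first inside was at 29910175 to 29911068 (34 fragments). In the MST-312 list these were at 29265220 to 29265495 and at 29906900 to 29907314, both with 31 fragments. At the upper border the last untreated region inside was at 33398735 to 33399636 (67 fragments) and the first outside at 33421804 to 33422740 (134 fragments). The last MST-312 region inside was at 33395404 to 33396597 (76 fragments) and the first outside at 33421962 to 33422552 (71 fragments).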

How the data were processed

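MYC ChIP-seq of 1 untreated and 1 MST-312 library of P493 cells was analysed from a peak list each. Per the submitters' processing notes, the tools were CASAVA 1.8 and Bowtie2 2.2.3, with the build hg19. Per the file headers, peaks were called per library with MACS 2.0.10.20131216 against the same input, with 200 bp fragments, a p-value threshold of 0.05 and at most 3 duplicate tags per position. The deposited pileup is a signal value, unscaled because both MYC libraries kept fewer tags than the input. The fold enrichment deposited beside it is the ratio of pileup to local background, which was back-calculated as (pileup + 1) / fold enrichment − 1. The deposited −log10 q values are the authors'. The unstated filter behind the lists and the duplicate limit can both set which weak regions appear.

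Overlap of 1 bp was counted in Python 3.11.15 (pandas 2.3.3, scipy 1.17.1) and checked with bedtools 2.31.1 and on simulated data. Without molecular identifiers, tags cannot be taken as independent molecules, and intervals cover counting error only. Alternatives covered the overlap rule, strength threshold, list length, membership, merging and scaling. The rule for named regions took, in each part, the 5 untreated regions with the highest pileup and, in each list, the 3 highest without a partner, the longest region and those at the borders; the strongest without a partner in each part, divided regions and pairs higher after MST-312 were named after their values were seen. Members, lists and rules were chosen with earlier results of these data known.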

Additional observations from a re-analysis of the deposited data

How the results depend on the processing

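With 1 library per condition no library could be left out. No paired analysis was possible because the result comes from no test. Of 78 alternative values, 49 were inside the 95% interval of the share or median in the report, or within 1.5 times its count, and 29 moved. Of 58 alternative values with a whole-list value, 9 lay below the list where the reported value lay above it. With −log10 q of 26 or more in both lists these were the untreated MHC share (55.4% against 59.5%), its class I (57.5%), class III (59.3%) and class II (50%) shares, and the MST-312 class I share (88.5% against 89.5%). With that threshold only in the list asked about they were untreated class II (70.6% against 82.0%) and MST-312 class I (92.3% against 95.4%), and with at least 50% shared the class I shares (38.1% against 44.4%, and 48.0% against 50.5%). Gaps of up to 1 kb, lists of equal length, membership by any overlap, merging of nearby regions, unscaled pileups and pairs with near summits moved none of the values they were run on. With at least 50% of both regions shared, the untreated share with a partner was 49.0% (class I 38.1%, class III 54.8%) and the MST-312 share 56.5% (class I 48.0%, class III 56.1%). With summits within 100 bp, the untreated share was 47.6% (class I 44.4%, class III 50%) and the MST-312 share 54.8% (class I 56.0%, class III 51.2%, class II 57.6%). With both lists held to −log10 q of 26 or more, the untreated share was 55.4% and the MST-312 share 93.8% (class III 95.2%, class II 100%), and 65 MST-312 regions were left, against 101 untreated. The median pileups were then 96 and 82 fragments and the median lengths 1163 and 935 bp. With that threshold only in the list asked about, the untreated share was 82.2% (class I 85.0%, class III 92.6%) and the MST-312 share 96.9% (class I 92.3%, class III 100%, class II 100%). A stricter rule leaves fewer regions or fewer overlaps by its construction. The strength threshold was known from earlier results. Counts of E-boxes at summits and of genes at regions, and their alternatives, were not run, since they need hg19 sequence and annotation. Depth enters as kept tags only.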
